A study of Homo sapiens with 4 samples.

Results

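The genes of the proteasome were examined in cells of the human prostate cancer line LNCaP in which a methyl-CpG binding activator can be switched on. The members were the genes named PSMA, PSMB, PSMC or PSMD with a number, without the immunoproteasome genes PSMB8 and PSMB9, and the activator genes PSME1 to PSME4, and each gene was read by its brightest probe. This gave 41 genes with 52 probes, out of 19483 genes named on the array. Each of the 2 cell lines, TR9_MeTA14 and TR15_MeTA5, was a stable line made from LNCaP cells that carry a Tet repressor and, under a tetracycline-responsive promoter, NFκB (AD)-MBD, a fusion of a transcriptional activation domain with a domain that binds methylated CpG sites. The 4 groups were TR9_MeTA14 without tetracycline (-Tet), TR9_MeTA14 with 4 days of tetracycline (+Tet), TR15_MeTA5 -Tet and TR15_MeTA5 +Tet, each hybridised once to a 1-colour Agilent array. Tet repressor lines without the fusion were not analysed here, so an effect of tetracycline alone and of the fusion cannot be told apart. Comparisons of single arrays have no replicate check and no p-value, and the lines stood in as replicates in the only test, a limma fit over all 4 arrays.

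The proteasome degrades proteins that carry ubiquitin chains. Its core particle is a barrel whose outer rings of alpha subunits gate the entrance and whose inner rings of beta subunits hold the proteolytic sites. A regulatory particle caps the barrel: its base contains a ring of ATPases that unfolds the substrate, and its lid removes the ubiquitin chain. Other activators can take the place of the regulatory particle and open the core without ATP. The subunit genes are expressed in nearly all cells, and transcription factors of the NFE2L family, which bind antioxidant response elements, are known to regulate them together.

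The induced fusion acts on methylated CpG sites, so the sequence around the start of a gene is shown for 4 members. PSMB3 had the largest positive and PSME4 the largest negative log2 change with tetracycline, both in TR9_MeTA14. In TR15_MeTA5 both were negative, -0.12 for PSMB3 and -0.28 for PSME4. The other members shown, PSMA8 and PSMB11, were not well above background on any array. Each run holds 250 bases before and 50 bases after the start of the gene as RefSeq gives it in GRCh38.p14, on the strand of the gene. Capitals mark the antioxidant response element core (TGACNNNGC) and the CCAAT box, the site of the NF-Y factor, each searched on both strands. No match of one pattern overlaps one of the other in these runs. The PSMB3 run is chr17:38752491-38752790 on the + strand, the PSME4 run chr2:53970944-53971243 on the - strand, the PSMA8 run chr18:26133619-26133918 on the + strand and the PSMB11 run chr14:23041962-23042261 on the + strand.
PSMB3: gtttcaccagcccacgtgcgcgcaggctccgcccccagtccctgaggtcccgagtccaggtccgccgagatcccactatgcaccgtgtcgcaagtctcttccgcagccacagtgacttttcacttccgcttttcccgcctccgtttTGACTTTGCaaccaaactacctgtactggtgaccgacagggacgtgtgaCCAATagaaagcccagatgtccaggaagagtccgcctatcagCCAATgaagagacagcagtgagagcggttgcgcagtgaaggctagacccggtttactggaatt
PSME4: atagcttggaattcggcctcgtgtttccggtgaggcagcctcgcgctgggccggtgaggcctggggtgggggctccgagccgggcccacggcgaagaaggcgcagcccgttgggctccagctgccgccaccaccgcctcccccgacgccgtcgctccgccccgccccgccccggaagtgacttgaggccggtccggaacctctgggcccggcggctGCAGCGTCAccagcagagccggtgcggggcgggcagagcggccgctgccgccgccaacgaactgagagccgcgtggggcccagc
PSMA8: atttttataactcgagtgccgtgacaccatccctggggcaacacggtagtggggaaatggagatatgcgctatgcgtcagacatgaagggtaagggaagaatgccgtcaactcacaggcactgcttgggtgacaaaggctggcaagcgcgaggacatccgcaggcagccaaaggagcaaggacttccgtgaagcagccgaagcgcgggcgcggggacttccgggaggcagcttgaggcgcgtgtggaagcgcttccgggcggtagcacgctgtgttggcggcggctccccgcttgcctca
PSMB11: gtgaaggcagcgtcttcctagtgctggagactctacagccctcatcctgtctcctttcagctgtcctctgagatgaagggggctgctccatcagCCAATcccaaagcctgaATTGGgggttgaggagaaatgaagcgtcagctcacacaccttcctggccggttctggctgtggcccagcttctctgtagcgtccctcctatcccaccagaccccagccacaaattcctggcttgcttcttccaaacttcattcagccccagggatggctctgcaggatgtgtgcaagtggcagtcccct

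These runs held 19 CpG dinucleotides for PSMB3, 37 for PSME4, 25 for PSMA8 and 4 for PSMB11. PSMB3 has an antioxidant response element core that begins at position -104 from the start and CCAAT boxes at -55 and -13. PSME4 has the core on the opposite strand at -34 and no CCAAT box. PSMA8 holds neither pattern, and PSMB11 has CCAAT boxes at -156 and, on the opposite strand, at -139. Of the 41 members, 36 had such a run, with 42 runs in all because some genes have several starts. PSMA7, PSMB1, PSMB6, PSMB7 and PSMD4 had none in the table. The antioxidant response element core was found in 12 of the 42 runs (28.6%), against 13.3% of the 35116 runs of all genes, and these 12 runs belonged to 12 genes: PSMA4, PSMB3, PSMC4, PSMC5, PSMD1, PSMD3, PSMD12, PSMD5, PSMD9, PSME1, PSME2 and PSME4. The CCAAT box was found in 18 of the 42 runs (42.9%), against 34.6% of all runs. The median number of CpG dinucleotides was 21.5 in the members' runs and 14 over all runs. The 35116 runs belong to 27305 genes, more than were named on the array, and were not matched to the members for base composition or expression. A match describes the letters only.

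The arrays held 34127 probes, of which 20569 to 24222 were well above background on each array, and no spot was saturated. The signal at the 75th percentile, by which each array was scaled, lay between 367 and 777. The luminal markers KLK3, KLK2, FOLH1, TMPRSS2, HOXB13, KRT8 and KRT18 were well above background on all 4 arrays, and the basal markers KRT5, KRT14 and TP63 on none. Markers of stroma, endothelium and leukocytes were mixed. COL1A1, CDH5, VWF, PTPRC and CD14 were well above background on all 4 arrays, CD3E on 3, PECAM1 on 2, and COL1A2, DCN and PDGFRB on none. The markers therefore do not separate cell types cleanly here. The luminal genes were not level across the arrays: KLK2, for example, had a signal of 12394 without and 972 with tetracycline in TR9_MeTA14, and 8443 and 6321 in TR15_MeTA5. The part of such changes in the values below was not tested. In RNA from whole cultures, fewer cells of a type and less RNA per cell cannot be told apart.

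Of the 41 members, 39 were well above background on all 4 arrays and 2 on none. Both of the latter are tissue-restricted forms of a core subunit. The probe of PSMA8, an alpha subunit of the testis, had signals of 3.54 and 3.15 without and with tetracycline in TR9_MeTA14 and 3.46 and 4.45 in TR15_MeTA5. The probe of PSMB11, the beta subunit of the thymus, had signals of 4.28 and 11.8 in TR9_MeTA14 and 4.29 and 8.08 in TR15_MeTA5. No fold is given for either gene, since neither array of any pair measured it. All counts below are over the 39 genes that were measured, and all levels are log2 signals relative to the 75th percentile of the same array. Levels are compared between arrays for 1 gene and never between genes.

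No member differed by 2-fold or more between the +Tet and the -Tet array in either line. Over all genes compared in TR9_MeTA14, the +Tet array was higher by that much for 16.8% and lower by that much for 15.1%. In TR15_MeTA5 the corresponding shares were 9.78% and 2.19%. At 1.5-fold, 1 member was higher in TR9_MeTA14 (PSMB3, against 24.6% of all genes) and 3 were lower (PSME4, PSME1 and PSMD7, against 27.1%). In TR15_MeTA5 no member reached 1.5-fold in either direction, against 14.7% of all genes higher and 11.3% lower. Of the 39 members, 26 stayed within 1.25-fold in TR9_MeTA14 (66.7%, against 29.4% of all genes), and 30 of 39 did so in TR15_MeTA5 (76.9%, against 46.6%). The shares of all genes by fold, here and below, include genes well above background only on the brighter array of a pair. The 39 members were well above background on every array, so the sets are not alike in signal.

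The median log2 change of the members in TR9_MeTA14 was -0.02, beside -0.06 for all genes, and other scalings of the arrays moved it between -0.02 and 0.12, to either side of 0. The values ran from -0.83 to 0.60, with 22 genes below 0 and 17 above, and their SD across genes was 0.33. Over the 12702 genes that were, like the members, well above background on all arrays, the SD was 1.26. In TR15_MeTA5 the median was -0.21, beside -0.16 for all genes, with 38 of 39 members below 0, and it became 0.23 with 35 members above 0 when the arrays were scaled on their spike-in probes. That scaling moved the median of all genes in TR15_MeTA5 to 0.28 as well. Relative to the median of all genes, 13 members were higher and 26 lower in TR15_MeTA5 under the percentile scaling. This split depended on the setting: 26 of 39 were higher under quantile normalization and 19 of 39 under normexp with quantile normalization. Under the percentile scaling the members' values ran from -0.51 to 0.14, with an SD of 0.15 across genes, against 0.75 over the 12702 genes. These spreads are a description with no test, and whether they go with the signal of the probes was not tested.

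**Figure D1:**
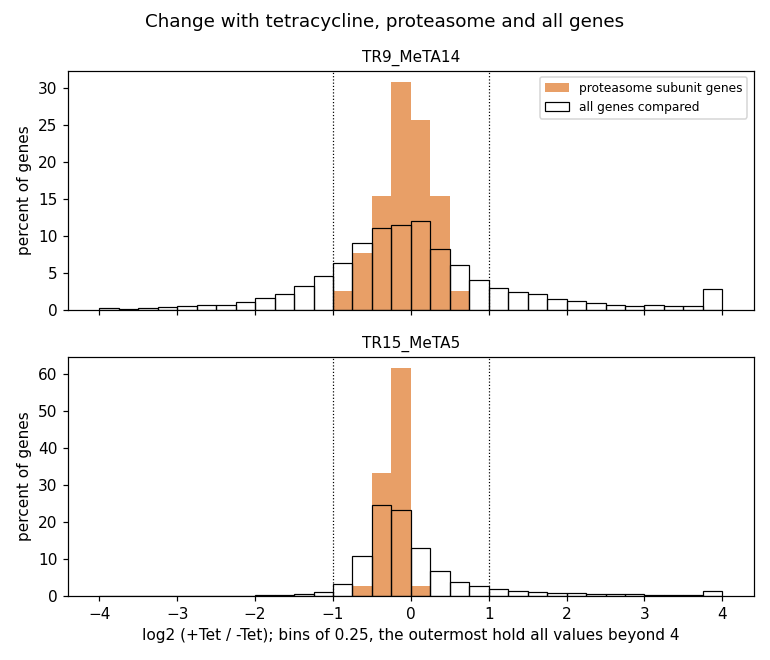
Share of genes (percent, y axis) by log2 change between the +Tet and the -Tet array (x axis, bins of 0.25) in TR9_MeTA14 (top) and TR15_MeTA5 (bottom). Filled bars are the 39 measured proteasome subunit genes, outlined bars all genes compared, and dotted lines mark 2-fold. All subunit genes lie between the dotted lines, while 16.8% of all genes lie at or beyond the right one in TR9_MeTA14 and 9.78% in TR15_MeTA5.

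Under the percentile scaling, 21 members were lower with tetracycline in each line, 0 were higher in each line, 17 were higher in TR9_MeTA14 and lower in TR15_MeTA5, and PSMA6 was the reverse. Of the 12702 genes well above background on all arrays, 7265 were below 0 in TR9_MeTA14 and 8689 in TR15_MeTA5. The sign counts rest on the scaling, since 35 of 39 members were above 0 in TR15_MeTA5 on the spike-in probes. In 10 of 39 members both +Tet arrays read below both -Tet arrays, against 29.6% of genes well above background on all arrays. The limma fit with cell line as a block and tetracycline as the effect called 0 of 39 members at an adjusted p below 0.05 (Benjamini-Hochberg over 22821 probes), where 2.52% of the probes were called higher and 0.00876% lower. At an unadjusted p below 0.05 there were 0 members and 4406 probes (19.3%). The lowest adjusted p of a member in limma was 0.335, for PSME4, and under the other settings the lowest adjusted p of any member lay between 0.323 and 0.548. The standard errors of the members' log2 changes in limma ran from 0.25 to 0.31, on 1 residual degree of freedom, so the absence of calls does not show that the members did not change. Across the 39 genes, the changes in TR9_MeTA14 and TR15_MeTA5 had a Pearson correlation of 0.31 and a Spearman correlation of 0.37. These points share 2 pairs of arrays on 1 slide and are genes, not replicates.

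**Figure D2:**
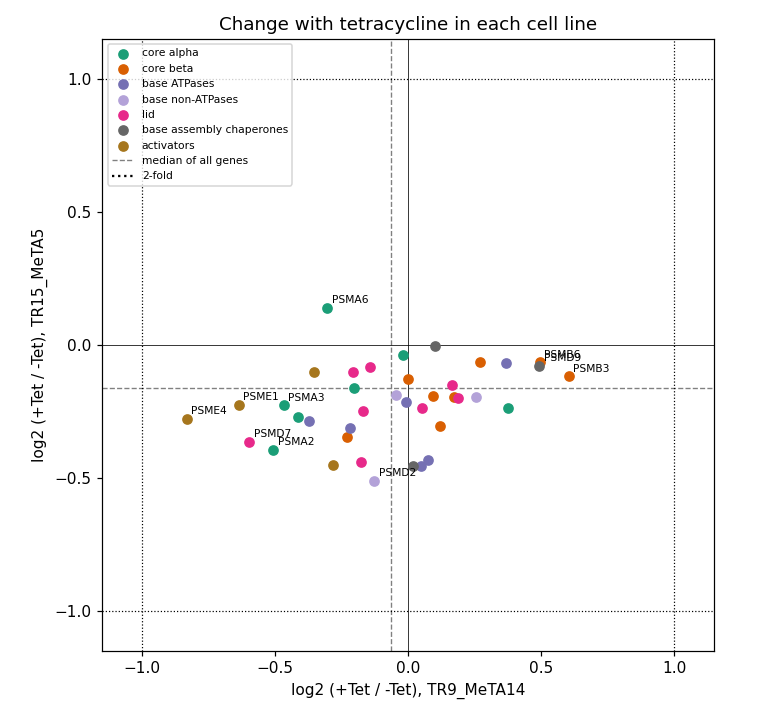
Log2 change between the +Tet and the -Tet array for each of the 39 measured members, TR9_MeTA14 on the x axis and TR15_MeTA5 on the y axis, coloured by subcomplex. Dashed lines are the medians of all genes (-0.06 and -0.16) and dotted lines mark 2-fold. All points but PSMA6 lie below 0 on the y axis, where scaling on spike-in probes would put 35 of 39 above 0, and the activators (brown) lie to the left of 0 on the x axis.

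The alpha subunits of the core formed the first group, with 7 of 8 genes measured. Their median log2 change was -0.30 in TR9_MeTA14, where 6 of 7 were below 0, and -0.23 in TR15_MeTA5, where 6 of 7 were below 0. The TR9_MeTA14 median stayed below 0 under the settings tried (-0.36 to -0.17), and the TR15_MeTA5 median ran from -0.23 to 0.22. PSMA2, a subunit of the alpha ring, had the lowest mean change of the group, with levels of 4.19 and 3.69 without and with tetracycline in TR9_MeTA14 and 4.61 and 4.22 in TR15_MeTA5. Both +Tet arrays did not lie below both -Tet arrays, since the TR15_MeTA5 +Tet level was the second highest of all. Its log2 change in limma was -0.45 with a standard error of 0.26 and an adjusted p of 0.379. PSMA7, the alpha subunit with the highest mean change, read 3.82 and 4.20 without and with tetracycline in TR9_MeTA14 and 4.25 and 4.01 in TR15_MeTA5. Its log2 changes were 0.37 in TR9_MeTA14 and -0.24 in TR15_MeTA5. The other 5 had log2 changes of -0.47 (PSMA3) to -0.02 (PSMA5) in TR9_MeTA14 and of -0.27 (PSMA1) to 0.14 (PSMA6) in TR15_MeTA5.

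The beta subunits, 8 of 9 measured, had a median log2 change of 0.15 in TR9_MeTA14, where 6 of 8 were above 0, and of -0.16 in TR15_MeTA5, where all 8 were below 0 under the percentile scaling. The TR9_MeTA14 median stayed above 0 under the settings tried (0.15 to 0.40), and that of TR15_MeTA5 ran from -0.16 to 0.28. The alpha median minus the beta median was -0.45 on the log2 scale in TR9_MeTA14 and -0.07 in TR15_MeTA5. The difference between the groups was not tested. PSMB3, a beta subunit with no proteolytic site, had the highest mean change of all members, with levels of 3.66 and 4.26 without and with tetracycline in TR9_MeTA14 and 4.79 and 4.67 in TR15_MeTA5. The TR9_MeTA14 -Tet array was the low one, and both TR15_MeTA5 arrays lay above both TR9_MeTA14 arrays. Its log2 changes were 0.60 in TR9_MeTA14 and -0.12 in TR15_MeTA5, and in limma the change over both lines was 0.24 with a standard error of 0.31 and an adjusted p of 0.686. Its promoter run, shown above, has both motifs. So does a run of PSMA4, whose log2 changes were -0.21 and -0.16, TR9_MeTA14 first. PSMD3 also has such a run, and its changes were 0.05 and -0.24 in the same order. The run of PSME4, the member with the largest negative change, has the antioxidant response element core. Whether the motifs go with the changes was not tested.

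The catalytic subunits of the core are PSMB5, PSMB6 and PSMB7, none of which reached 1.5-fold in either line. PSMB5, which carries the chymotrypsin-like site and is the main target of proteasome inhibitors such as bortezomib, had log2 changes of 0.12 in TR9_MeTA14 and -0.31 in TR15_MeTA5. PSMB6, with the caspase-like site, had 0.49 and -0.07 in the same order, and PSMB7, with the trypsin-like site, 0.17 and -0.20. PSMB10, the catalytic subunit that replaces PSMB7 in the immunoproteasome and is induced by interferon gamma in many cells, had the lowest mean change of the beta genes. It read 3.66 and 3.43 without and with tetracycline in TR9_MeTA14 and 4.80 and 4.45 in TR15_MeTA5. Its levels were ordered by cell line and not by treatment: both TR15_MeTA5 arrays lay above both TR9_MeTA14 arrays. Of the remaining genes, PSMB1 had log2 changes of 0.09 and -0.19, PSMB2 of 0.27 and -0.06 and PSMB4 of -0.0018 and -0.13, TR9_MeTA14 first.

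**Figure D3:**
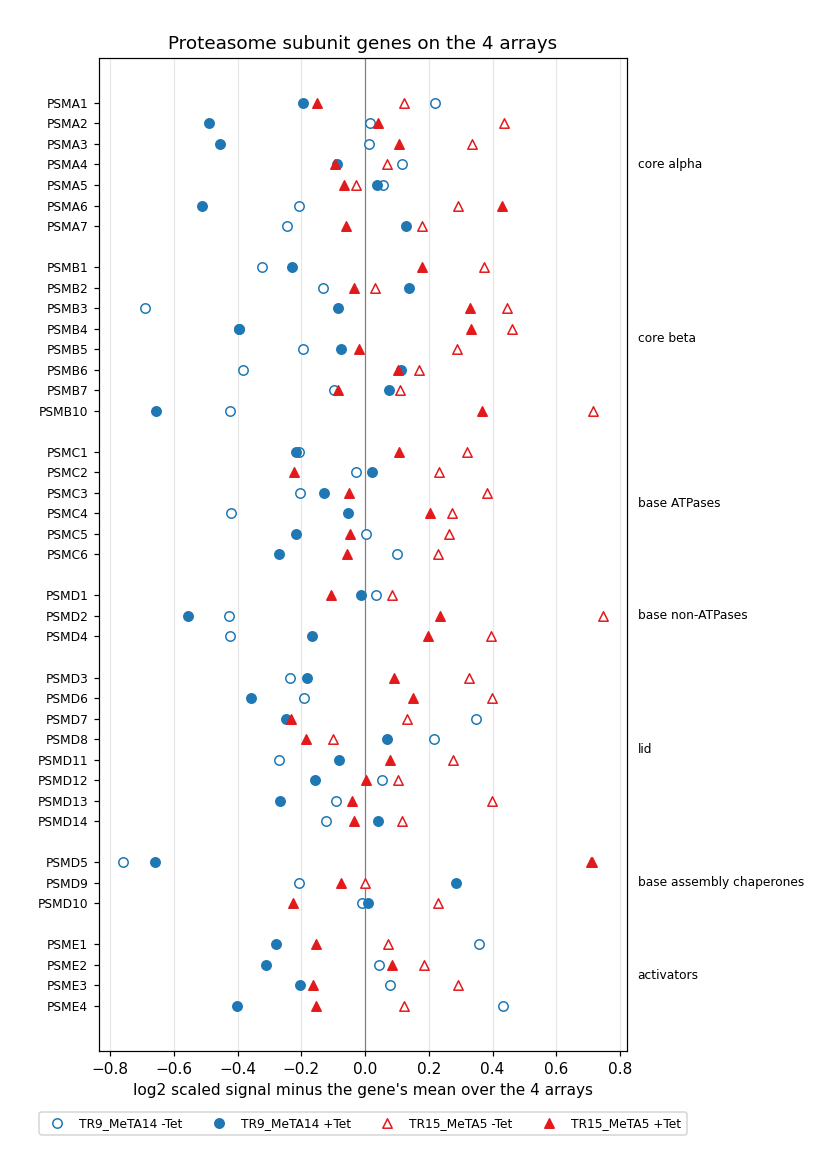
Log2 scaled signal of each measured member on the 4 arrays, minus the mean of the 4 for that gene (x axis), with 1 row a gene, grouped by subcomplex. Circles are TR9_MeTA14, triangles TR15_MeTA5, and filled symbols +Tet arrays, 1 array each. The TR15_MeTA5 -Tet array holds the highest value of 29 of the 39 genes under the percentile scaling, a share not counted over all genes. All genes also tended to be higher on it, with a median of 0.12 over TR9_MeTA14 -Tet. Their median for TR15_MeTA5 +Tet against this array was -0.16. Both triangles lie above both circles for 19 of the 39 genes, PSMB10, PSMD2 and PSMD5 among them, against 25.5% of genes well above background on all arrays.

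The ATPases of the base, all 6 measured, had median log2 changes of 0.02 in TR9_MeTA14 and -0.30 in TR15_MeTA5. The second was the lowest median of the groups in TR15_MeTA5 under the percentile scaling and 0.14 on the spike-in probes. PSMC4 had the highest mean change of the group and read 2.76 and 3.13 without and with tetracycline in TR9_MeTA14 and 3.45 and 3.38 in TR15_MeTA5. PSMC6 had the lowest and read 1.84 and 1.47 without and with tetracycline in TR9_MeTA14 and 1.96 and 1.68 in TR15_MeTA5. PSMC6 had negative log2 changes in both lines, -0.37 and -0.29, and the PSMC4 changes were 0.37 and -0.07. The other 4 ran from -0.22 (PSMC5) to 0.07 (PSMC3) in TR9_MeTA14 and from -0.45 (PSMC2) to -0.21 (PSMC1) in TR15_MeTA5.

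The non-ATPase subunits of the base had median changes of -0.05 and -0.20. PSMD4, a receptor that binds ubiquitin chains, had the highest mean change of the 3 and read 4.57 and 4.83 without and with tetracycline in TR9_MeTA14 and 5.39 and 5.19 in TR15_MeTA5. PSMD2, a scaffold subunit on which shuttle factors dock, had the lowest, with log2 changes of -0.13 in TR9_MeTA14 and -0.51 in TR15_MeTA5. It read 5.63 and 5.50 without and with tetracycline in TR9_MeTA14 and 6.80 and 6.29 in TR15_MeTA5. The value of TR15_MeTA5 was the lowest of any member in that line, and both TR15_MeTA5 arrays nevertheless lay above both TR9_MeTA14 arrays. PSMD1, the other scaffold, had changes of -0.05 and -0.19.

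The lid had 8 of 8 genes measured, with median log2 changes of -0.16 in TR9_MeTA14 and -0.22 in TR15_MeTA5. Under the settings tried the first ran from -0.16 to -0.02 and the second from -0.22 to 0.23. PSMD14, the deubiquitinase that cuts the chain from the substrate, had the highest mean change of the lid genes and read 3.16 and 3.32 without and with tetracycline in TR9_MeTA14 and 3.39 and 3.24 in TR15_MeTA5. PSMD7, its catalytically inactive partner, had the lowest. It read 3.36 and 2.77 without and with tetracycline in TR9_MeTA14 and 3.15 and 2.78 in TR15_MeTA5, so both +Tet arrays lay below both -Tet arrays. Its log2 changes were -0.60 in TR9_MeTA14 and -0.36 in TR15_MeTA5, and limma gave -0.48 with a standard error of 0.26 and an adjusted p of 0.352. The partners thus had values of opposite sign in TR9_MeTA14, a difference that was not tested. The other lid genes ran from -0.21 (PSMD12) to 0.19 (PSMD11) in TR9_MeTA14 and from -0.44 (PSMD13) to -0.08 (PSMD8) in TR15_MeTA5.

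The 3 chaperones that help the base assemble, PSMD5, PSMD9 and PSMD10, had median changes of 0.10 and -0.08. PSMD9 had the highest mean change and read 3.84 and 4.34 without and with tetracycline in TR9_MeTA14 and 4.05 and 3.97 in TR15_MeTA5, with changes of 0.49 in TR9_MeTA14 and -0.08 in TR15_MeTA5. PSMD10, also known as gankyrin, had the lowest mean change and read 0.45 and 0.46 without and with tetracycline in TR9_MeTA14 and 0.68 and 0.23 in TR15_MeTA5. Its changes were 0.02 and -0.45. PSMD5 read -2.79 and -2.69 without and with tetracycline in TR9_MeTA14 and -1.32 and -1.32 in TR15_MeTA5, so that both TR15_MeTA5 arrays lay above both TR9_MeTA14 arrays.

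The activators were the group with the lowest median in TR9_MeTA14, -0.50, with 4 of 4 genes below 0, and it stayed below 0 under the settings tried (-0.50 to -0.36). In TR15_MeTA5 the median was -0.25, with 4 of 4 below 0, and ran from -0.26 to 0.19 over the settings. PSME1 and PSME2 encode the subunits of an interferon-inducible activator that works with the immunoproteasome. PSME1 read 0.15 and -0.48 without and with tetracycline in TR9_MeTA14 and -0.13 and -0.36 in TR15_MeTA5, and PSME2 read 5.53 and 5.18 without and with tetracycline in TR9_MeTA14 and 5.68 and 5.58 in TR15_MeTA5. PSME1 had log2 changes of -0.64 and -0.23, and PSME2 of -0.35 and -0.10, TR9_MeTA14 first. PSME3, the related activator of the nucleus, read 1.41 and 1.13 without and with tetracycline in TR9_MeTA14 and 1.63 and 1.17 in TR15_MeTA5, with log2 changes of -0.28 and -0.45. PSME4, a large single-chain activator that acts on acetylated histones, read 1.06 and 0.23 without and with tetracycline in TR9_MeTA14 and 0.75 and 0.47 in TR15_MeTA5. Its highest level was on the TR9_MeTA14 -Tet array and its lowest on the TR9_MeTA14 +Tet array, so the TR15_MeTA5 levels lay within the range of TR9_MeTA14. The log2 changes of PSME4 were -0.83 in TR9_MeTA14 and -0.28 in TR15_MeTA5, the first being 1.78-fold lower with tetracycline. In limma the change over both lines was -0.56 with a standard error of 0.28 and an adjusted p of 0.335. A second, dimmer PSME4 probe, also well above background on all 4 arrays, did not show this, with log2 changes of 0.12 in TR9_MeTA14 and -0.03 in TR15_MeTA5.

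In all, 8 members had a second probe that was well above background on all arrays. For 6 of them (PSMB1, PSMB2, PSMC1, PSMD1, PSMD2 and PSMD10) the log2 changes with tetracycline of both probes lay within 0.16 of each other in each line. The exceptions were PSME4, with a gap of 0.95 in TR9_MeTA14, and PSMA1, with gaps of 0.32 in TR9_MeTA14 and 0.87 in TR15_MeTA5. The second PSMA1 probe is annotated to another transcript of the gene and had changes of -0.73 and 0.60. Between the -Tet arrays of the lines, the gaps were 0.80 for PSMA1, 0.49 for PSME4 and 0.40 for PSMD2.

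The arrays also allow the lines to be compared with each other. Both TR15_MeTA5 arrays lay above both TR9_MeTA14 arrays for 19 of 39 members, against 25.5% of genes well above background on all arrays, and below them for 2 (PSMA5 and PSMD8), against 16.4%. The median log2 difference, TR15_MeTA5 over TR9_MeTA14, was 0.32 between the -Tet arrays, beside 0.12 for all genes, and 30 of 39 members lay above the median of all genes. Between the +Tet arrays it was 0.16, beside 0.07 for all genes, with 23 of 39 members above the median of all genes. Scaling on the spike-in probes turned both signs, to -0.73 and -0.58, since it moved all genes alike, whose medians became -0.92 and -0.64. A shift of all genes alike hardly moves a member relative to their median. It left 29 of 39 members above that median between the -Tet arrays and 22 of 39 between the +Tet arrays. Under quantile normalization these counts were 26 and 23 of 39, and under normexp with quantile normalization 25 and 22. With no filter, PSMA8 and PSMB11 included, they were 22 and 18 of 41. The differences between the lines come from the same 4 arrays as the changes with tetracycline.

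Between the -Tet arrays, 4 members were at least 2-fold higher in TR15_MeTA5 (against 8.14% of all genes) and 0 at least 2-fold lower (5.18%). They were PSMD5 (1.47), PSMD2 (1.17), PSMB10 (1.14) and PSMB3 (1.13) on the log2 scale. A second PSMD2 probe, also well above background on all 4 arrays, gave 0.77, which is under 2-fold. At 1.5-fold, 10 were higher (20.6%) and 0 lower (12.9%). Between the +Tet arrays, 2 members were at least 2-fold higher, PSMD5 (1.37) and PSMB10 (1.02), against 14.2% of all genes, and 0 at least 2-fold lower, against 10.4%. At 1.5-fold, 5 were higher (25.1%) and 0 lower (20.2%). All these counts are under the percentile scaling. Scaling on the spike-in probes adds -1.05 to each difference between the -Tet arrays and -0.74 to each between the +Tet arrays. Between the -Tet arrays that puts PSMD5, PSMD2, PSMB10 and PSMB3 under 2-fold, and puts PSMD8 (-0.31 before) and other members past 2-fold lower. By subcomplex, the beta genes had a median difference of 0.62 between the -Tet arrays, the base non-ATPases 0.82, the ATPases 0.40, the lid 0.36, the alpha genes 0.32, the chaperones 0.24 and the activators -0.07. All 8 beta genes and all 9 base genes were higher in TR15_MeTA5 without tetracycline under the percentile scaling, against 8016 of 13794 genes compared. The medians of the beta and base genes were below 0 on the spike-in probes. Between the +Tet arrays 5 of 8 beta genes and 7 of 9 base genes were higher in TR15_MeTA5, against 7757 of 14613 genes compared. The medians there were 0.23 for the beta genes, 0.36 for the base non-ATPases, 0.19 for the ATPases, 0.16 for the lid, 0.04 for the alpha genes, -0.23 for the chaperones and 0.19 for the activators, under the percentile scaling.

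The line coefficient of the limma fit called 0 members at an adjusted p below 0.05, as it called 0 probes in all (0.0% higher and 0.0% lower). At an unadjusted p below 0.05 there were 4 members, all higher in TR15_MeTA5, and 3632 probes (15.9%). These 4 were PSMD5, PSMB10, PSMD2 and PSMB4, named after their values were seen. PSMD5 had a log2 difference of 1.42 with a standard error of 0.27 and an adjusted p of 0.257 in limma. PSMB10 had 1.08 with a standard error of 0.26 and an adjusted p of 0.262 in the same limma fit. PSMD2 followed with 0.98 with a standard error of 0.29 and an adjusted p of 0.283, and PSMB4, a beta subunit without a proteolytic site, with 0.79 with a standard error of 0.27 and an adjusted p of 0.307. The second PSMD5 probe was well above background only on the TR15_MeTA5 arrays, with signals of 3.56 and 6.98 in TR9_MeTA14 and 21.4 and 28.0 in TR15_MeTA5. It was at least 2.34-fold higher in TR15_MeTA5 between the -Tet arrays and at least 2.89-fold between the +Tet arrays, where the bound takes the lowest level well above background on the dim array.

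**Figure D4:**
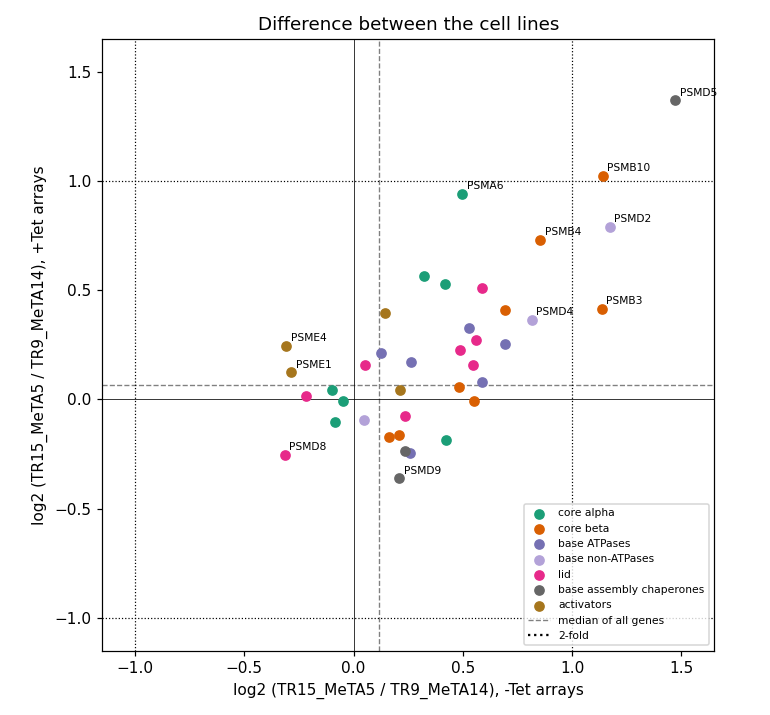
Log2 difference between TR15_MeTA5 and TR9_MeTA14 for each of the 39 measured members, between the -Tet arrays on the x axis and between the +Tet arrays on the y axis, coloured by subcomplex. Dashed lines are the medians of all genes (0.12 and 0.07) and dotted lines mark 2-fold. PSMD5 and PSMB10 lie beyond 2-fold on both axes, while scaling on the spike-in probes would move the median of the members to -0.73 and -0.58.

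Other genes of the pathway were read from a list of 29, of which 28 had a probe (ECPAS had none named). All of them but NFE2L2 were well above background on all 4 arrays. Of the 27 tested in limma, 0 were called, with a lowest adjusted p of 0.264. Their median log2 change was -0.41 in TR9_MeTA14, where 21 of 27 were below 0, and -0.26 in TR15_MeTA5, where 20 of 27 were below 0 under the percentile scaling. Their spread was wider than that of the subunit genes, with an SD across genes of 0.54 in TR9_MeTA14 and 0.35 in TR15_MeTA5.

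Among the chaperones that assemble the core, PSMG1 had the lowest mean change over the lines, with levels of 4.03 and 2.93 without and with tetracycline in TR9_MeTA14 and 3.80 and 3.37 in TR15_MeTA5. This was 2.15-fold lower with tetracycline in TR9_MeTA14. PSMG3 had the highest mean change of the group, with 0.34 and 0.08. Of the associated proteins, ADRM1, a ubiquitin receptor of the base whose name falls outside the naming rule, read 1.98 and 3.13 without and with tetracycline in TR9_MeTA14 and 2.36 and 2.68 in TR15_MeTA5, 2.22-fold higher in TR9_MeTA14. PSMF1, an inhibitor of the core, had changes of -0.87 and -0.41. Of the regulators, NFE2L1, the factor that raises subunit genes when the proteasome is inhibited, read 2.91 and 2.56 without and with tetracycline in TR9_MeTA14 and 2.77 and 2.62 in TR15_MeTA5. The NFE2L2 probe was not well above background on any array. DDI2, the protease that activates NFE2L1, had changes of -0.63 and -0.13, the lowest mean of the group, and NFYA, a subunit of NF-Y, had -0.10 and 0.50, the highest.

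Among the genes for ubiquitin and its delivery, RPS27A, which encodes ubiquitin fused to a ribosomal protein and has near-identical copies in the genome that a probe may also read, had the lowest mean change over the lines, with levels of 6.77 and 5.19 without and with tetracycline in TR9_MeTA14 and 6.67 and 6.21 in TR15_MeTA5. It was 2.98-fold lower with tetracycline in TR9_MeTA14. RAD23B, a shuttle factor that brings substrates to the proteasome, was 2.11-fold lower in TR9_MeTA14, with log2 changes of -1.08 and -0.26. UBA1, the main ubiquitin-activating enzyme, had the highest mean change of the group and read 1.63 and 1.92 without and with tetracycline in TR9_MeTA14 and 0.70 and 1.68 in TR15_MeTA5. It was higher with tetracycline in both lines, with changes of 0.28 and 0.98. In TR9_MeTA14 the genes past 2-fold were ADRM1, PSMG1, RPS27A and RAD23B, which is 1 gene higher and 3 lower of 27, against the 16.8% and 15.1% of all genes in that line. In TR15_MeTA5 none of the 27 reached 2-fold, against 9.78% and 2.19%.

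**Figure D5:**
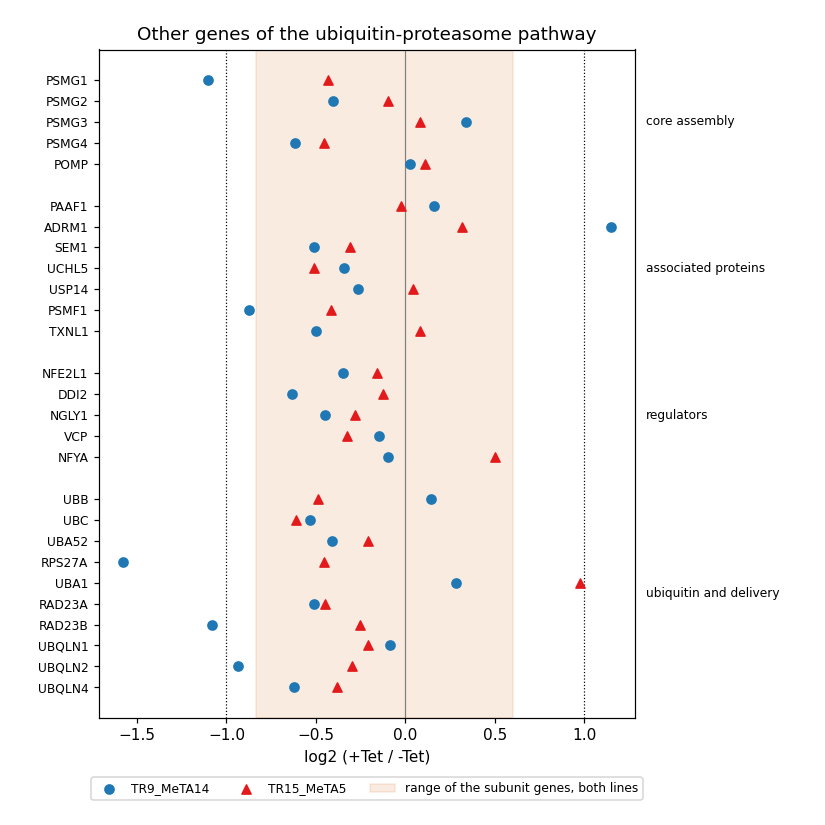
Log2 change between the +Tet and the -Tet array (x axis) of the 27 measured genes of the pathway outside the naming rule, with 1 row a gene, for TR9_MeTA14 (circles) and TR15_MeTA5 (triangles), 1 pair of arrays each. The shaded band is the range of the subunit genes in both lines (-0.83 to 0.60) and dotted lines mark 2-fold. In TR9_MeTA14 PSMG1, RPS27A, RAD23B and ADRM1 lie beyond 2-fold, and PSMF1 and UBQLN2 also lie outside the band.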

How the data were processed

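RNA of each of the 4 conditions was labelled with Cy3 and hybridised to 1 Agilent whole human genome array, and all arrays came from 1 slide. The authors deposited the scanner output of Agilent Feature Extraction (10.7.3.1 per the file headers, 9.5.1 per the processing notes), whose processed signal is a background-subtracted intensity per spot, and a series table with the same intensity values. Here, outlier spots were left out, spots of a probe were averaged, and log2 values were taken relative to the 75th percentile of the non-control probes of each array. A probe counted as well above background where at least 0.5 of its spots were marked so. The files carried no gene names, so probes were named through their RefSeq accession (GRCh38.p14), which matched 25422 of 34127 probes (74.5%) and 19483 genes, 1 brightest probe each. The technical SD of a log2 ratio, from probes printed in 10 spots, was 0.086. It measures the spread of spots within an array and holds no variation between arrays or cultures. That number of spots and arrays limits the precision.

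Folds compare 1 array with 1 array, for genes well above background on the brighter one. The limma fit (version 3.58.1 in R 4.3.3) held cell line and tetracycline, with a trend on intensity. Its p-values were adjusted by Benjamini and Hochberg's method over the 22821 probes that passed the background mark on 2 or more arrays. The step was tested on simulated data, where it recovered none of the changes of 1 or of 2 on the log2 scale with tetracycline. Both are larger than any member's change with tetracycline, so the absence of called members says little. Nothing in the labels gives replicate cultures, so p-values measure only the spread between these arrays. The members, subcomplexes and pathway list were chosen with earlier results of these data known. Levels on all 4 arrays were given for members past 2-fold or an adjusted p of 0.05, those with the highest and lowest mean change of a subcomplex, PSMA8, PSMB10, PSMB11 and the activators, and other pathway genes were named likewise. Alternatives covered scaling, background, filters, probe choice, fold and the limma model. Leaving out a replicate was not possible with 1 array per condition.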

Additional observations from a re-analysis of the deposited data

Results flagged for a closer look

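Tetracycline gave values of opposite sign in the cell lines for 4 subunit genes, each by more than 0.17, which is 2 technical SDs of a log2 ratio. That SD comes from repeated spots within an array and holds no variation between arrays or cultures. The members' standard errors in limma ran from 0.25 to 0.31. They draw largely on the variance of all probes tested, and not only on the member's own arrays. The 1 residual degree of freedom of that fit is itself the disagreement between the lines in the change with tetracycline. PSMA7 had a log2 change of 0.37 in TR9_MeTA14 and -0.24 in TR15_MeTA5. PSMB7 had 0.17 and -0.20, PSMD4 had 0.25 and -0.20, and PSMD11 had 0.19 and -0.20, in the same order. With 1 array per condition the difference between the lines was not tested. Scaling on the spike-in probes adds 0.44 to each TR15_MeTA5 value, which brings all 4 above 0.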

How the results depend on the processing

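No alternative brought a member past an adjusted p of 0.05 in limma, for tetracycline or for the line. The lowest adjusted p of any member ran from 0.323 to 0.548 for tetracycline and from 0.0693 to 0.668 for the line. Scaling on the 8 spike-in probes moved every gene alike: the median of all genes went from -0.06 to 0.071 in TR9_MeTA14, from -0.16 to 0.28 in TR15_MeTA5, and from 0.12 to -0.92 (-Tet) and from 0.07 to -0.64 (+Tet) between the lines. The medians of the members became 0.12 in TR9_MeTA14, 0.23 in TR15_MeTA5, -0.73 between the -Tet arrays and -0.58 between the +Tet arrays. Under quantile normalization the members' median was -0.070 in TR15_MeTA5, and between the lines it was 0.13 (-Tet) and 0.039 (+Tet). Under normexp with quantile normalization these were -0.11, 0.11 and 0.047. For all genes, the TR15_MeTA5 median was -0.15 under quantile normalization and -0.11 under normexp with quantile normalization. The median between the -Tet lines was 0.42 with the mean over the probes of a gene and 0.42 with no filter. In TR9_MeTA14, the count of members at least 1.5-fold higher was 2 with the mean over probes, 2 with no filter, 2 with quantile normalization, 3 with normexp and 3 on the spike-in probes. The count at least 1.5-fold lower was 1 with scaling on the median and 1 on the spike-in probes. The count at least 2-fold higher was 1 with the mean over probes (PSMD9, through a second probe above background on 1 array) and 1 with no filter (PSMB11, below background on all arrays). Lowering the threshold to 1.5-fold gave 1 higher and 3 lower. Of the 156 single values of the 39 members, 156 moved by more than the technical SD on the spike-in probes, 103 under normexp, 102 under quantile normalization, 20 with the mean over probes and 0 under the other settings. The +Tet and -Tet arrays were paired by cell line in the limma fit, and without that block 0 members were called as well. Signals near background limit PSMA8 and PSMB11, for which no change could be measured.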
